A study of Homo sapiens with 12 samples.

Results

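Proteins that enter the secretory pathway are folded in the endoplasmic reticulum (ER) by chaperones, and when unfolded protein accumulates there the cell turns on the unfolded protein response. The response has sensors in the ER membrane: ATF6, which is cut to release a transcription factor, IRE1 (gene ERN1), which splices the XBP1 mRNA so that it encodes an active factor, and PERK (gene EIF2AK3), which slows translation and raises ATF4. The 10 genes described here are HSPA5, HSP90B1, CALR, PDIA4, DNAJB9, DNAJC3, SDF2L1, CRELD2 and HERPUD1, which ATF6 or XBP1 are known to induce, together with XBP1 itself. They were taken as a set by name, and a gene was read through every array probe whose accession belonged to it. This gave 11 probes of the 10 genes among 34127 probes, with 1 probe a gene except for HSP90B1, which had 2 and was led by the brighter.

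The cells were Daoy, a single established human medulloblastoma (MB) line. They were grown in astrocyte conditioned media (ACM) or, as control, in full DMEM, with serum given as 10% for all groups. ACM had been collected from cultured hippocampal astrocytes of newborn Sprague Dawley rats, 1 to 2 days old. Cells were taken after a single passage (P1) or after 3 of them (P3), each lasting 48 h, and RNA of 3 independent experiments was measured in each of the 4 groups on 12 single-colour Agilent arrays. The comparison asks how transcription in MB cells differs when the medium comes from astrocytes. Arrays measure transcript abundance over all cells of a culture, so fewer expressing cells and less RNA per cell cannot be told apart, and the probes used here do not tell spliced from unspliced XBP1 mRNA.

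The arrays lay on 3 slides of 4. All P1 ACM arrays were on slide 1 with the first P3 ACM array, the remaining P3 ACM arrays were on slide 2 with the first and second P1 DMEM arrays, and the last P1 DMEM array was on slide 3 with all P3 DMEM arrays. Since no slide carried both media at one passage, medium and slide cannot be told apart in either comparison except through a block fitted across slides. That block links the media at P1 through P3 ACM replicate 1 on slide 1, and at P3 through P1 DMEM replicate 3 on slide 3. Each was the only array of its group on its slide, so a fit with this block depends on that single array. The share of probes well above background was 91.0 to 94.6% on slide 1, 74.3 to 80.3% on slide 2 and 88.1 to 91.0% on slide 3. All 11 probes of the set were well above background on all 12 arrays. The deposited table of processed values disagreed with the scanner files, since each of its 12 columns ranked its probes as an array of another label. Which labels are right could not be settled, so the scanner files were used under their own labels. For genes of the set, the table's values are given where they turn the direction of a difference between media at P3. For the other genes named they are not given, whatever their direction there. Of the markers, GFAP, which defines astrocytes, was not well above background on all 3 arrays of any group. The summed level of the 7 astrocyte markers with a probe was 3.51 to 5.51 times the scaling value at P1 with ACM and 4.06 to 5.47 with DMEM. At P3 it was 3.31 to 5.56 with ACM and 3.96 to 4.67 with DMEM. Of 8 MB and neural progenitor markers, 7 were well above background on all 3 arrays of P1 ACM, P3 ACM and P3 DMEM and 5 in P1 DMEM, and ATOH1 was not in any group. Their summed level was 83.4 to 106 with ACM and 90.8 to 137 with DMEM at P1, and 90.4 to 103 and 115 to 177 at P3. The astrocyte markers did not move together. Of 6 tested at P1, 3 were higher in ACM and 1 was lower at p of 0.05 or less, and 3 of these were past 2-fold, while at P3 0 were higher and 2 lower. Of all genes, 24% had that p at P1 in either direction, 13.6% were also past 2-fold, and 0.906% had that p in the lower direction. At P3, 7.27% of all genes had that p in either direction. Of 6 immune and endothelial markers 2 were higher at that p at either passage and 0 lower, and their summed level at P1 was 1.82 to 2.15 with ACM and 1.43 to 2.06 with DMEM. At P3 that sum was 1.72 to 2.05 with ACM and 1.42 to 1.62 with DMEM. The part of any marker list in the results was not tested.

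In 7 of the 10 genes the promoter window held an element to which ATF6 or XBP1 binds. The letters were not used to choose the genes. The genes were chosen as known targets of ATF6 or XBP1, so the presence of these elements is no independent result. The ER stress response element (ERSE) has the letters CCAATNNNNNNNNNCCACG, in which NF-Y binds the first 5 bases and ATF6 or XBP1 the last 5, and ERSE-II has the letters ATTGGNCCACG. Both strands of RefSeq promoter windows (GRCh38.p14, from 250 bases before to 50 bases after each gene start) were searched. ERSE was present in 27 of 35116 windows (0.0769%), of which 5 belonged to the set (HSPA5, HSP90B1, CALR, CRELD2 and XBP1), and HSP90B1 had 2 that did not overlap. ERSE-II was present in 19 windows (0.0541%), of which HERPUD1 and SDF2L1 were 2. The XBP1 site UPRE, TGACGTGG, was present in 256 windows (0.729%) and in 0 of the set, and the windows of DNAJB9, PDIA4 and DNAJC3 held none of these 3 motifs. The matched stretches are shown because they are what 7 of the 10 genes have in common. They are written 5′ to 3′ on the strand of the gene with the motif in capitals, and a motif that begins with CGTGG is the reverse complement.
HSPA5, chr9:125241381-125241419, minus strand: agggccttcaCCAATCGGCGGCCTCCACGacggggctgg
XBP1, chr22:28800593-28800631, minus strand: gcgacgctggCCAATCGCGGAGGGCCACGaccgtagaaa
HSP90B1, distal, chr12:103930206-103930244, plus strand: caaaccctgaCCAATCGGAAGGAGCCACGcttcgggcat
HSP90B1, proximal, chr12:103930311-103930349, plus strand: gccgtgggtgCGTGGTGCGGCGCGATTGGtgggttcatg
CALR, chr19:12938374-12938412, plus strand: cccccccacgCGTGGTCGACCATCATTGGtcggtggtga
CRELD2, chr22:49918544-49918582, plus strand: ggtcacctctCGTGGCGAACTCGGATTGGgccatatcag
HERPUD1, chr16:56932015-56932045, plus strand: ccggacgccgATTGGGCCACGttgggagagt
SDF2L1, chr22:21642104-21642134, plus strand: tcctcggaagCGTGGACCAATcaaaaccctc
The near end of the motif lay 34 bases before the gene start in XBP1, 48 in HSPA5, 62 in CRELD2, 107 in HERPUD1, 178 in SDF2L1 and 207 in CALR, and 71 and 176 for the pair in HSP90B1. A match describes these letters only. Binding was not measured.

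Most genes of the set had a lower mean level in ACM than in DMEM at both passages, but no gene of the set passed an adjusted p of 0.05 or the study's thresholds of more than 2-fold and unadjusted p of 0.05 or less at either passage. Levels are log2 intensities from which the 75th percentile of all probes on that array was subtracted, so they compare arrays for 1 probe and not one gene with another. At P1, 8 of the 10 genes had a lower mean in ACM, with a median log2 difference of -0.14, while 36.1% of all 25275 genes were lower and their median was 0.15. That median was 0.05 with only probes well above background on all 12 arrays, as those of the set were. Of all genes with a symbol, 42.1% were lower, with a median of 0.07. At P3, 9 of 10 had a lower mean in ACM, with a median of -0.34, beside 49.6% of all genes and a median of 0.00. With the arrays quantile normalized the set medians were -0.05 at P1 and -0.23 at P3, and in the table the authors deposited, under its own labels, the P3 median was 0.23 with 8 of 10 genes higher. With slide as a block the medians were -0.11 at P1 and -0.13 at P3. At P1, 1 gene of the set had p of 0.05 or less in the lower direction (0.906% of all genes), 0 were past the study's thresholds (13.6%) and 0 passed the adjusted p (0%). At P3 these counts were 1 (3.43%), 0 (1.73%) and 0 (0%).

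**Figure D1:**
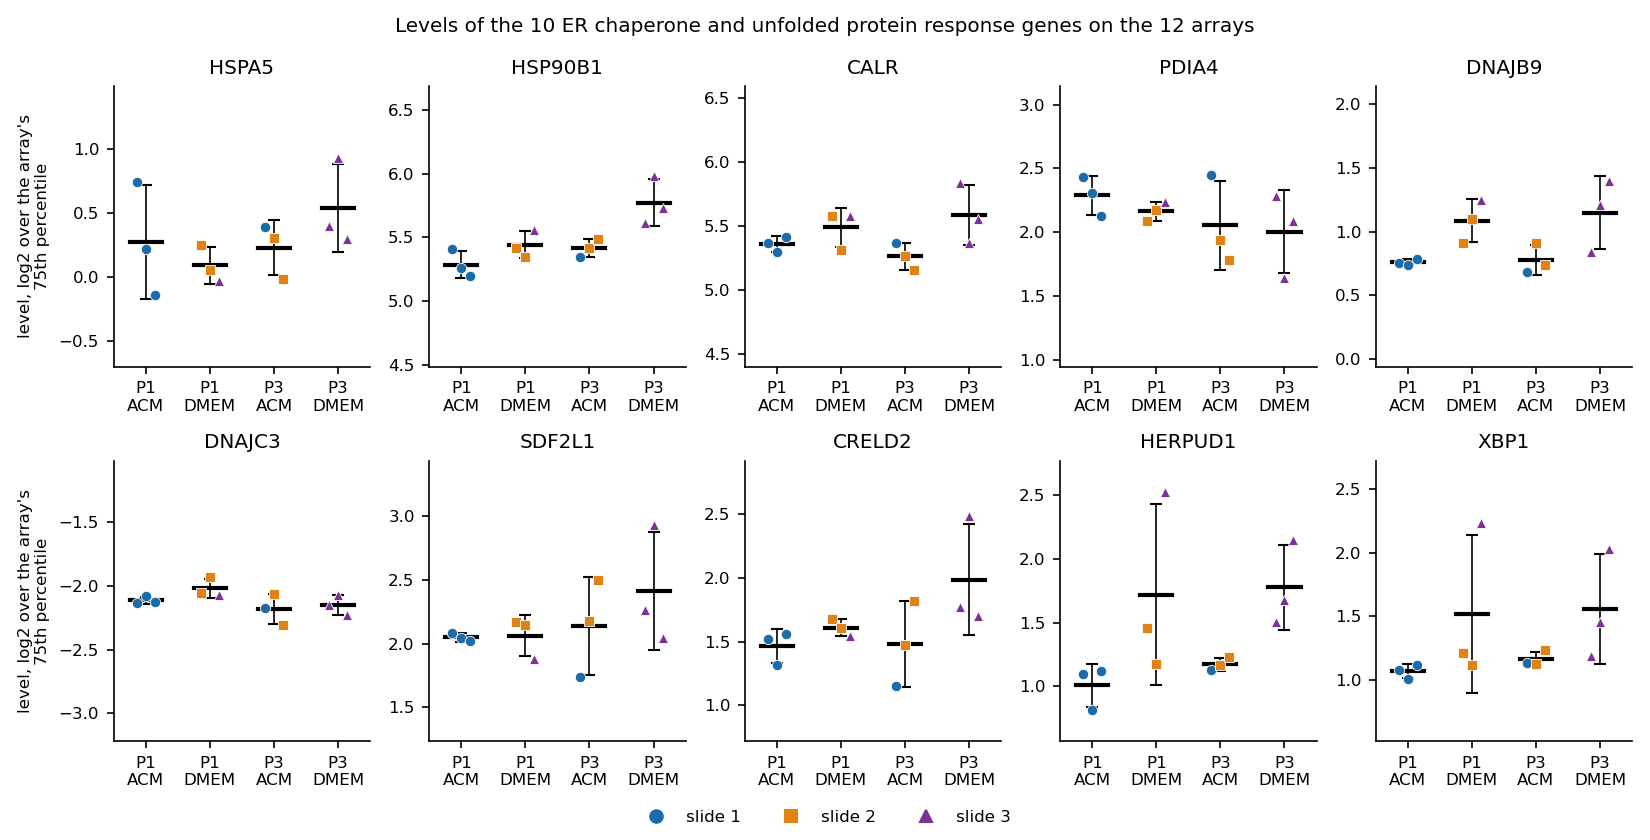
Level of each gene on the 12 arrays, in log2 units above or below the array's 75th percentile, by medium and passage. Points are arrays, shaped and coloured by slide, black bars are the mean and SD of 3 arrays, and every panel spans the same number of log2 units. By the scanner labels, HERPUD1 and XBP1 are spread widely in the DMEM groups, and narrowly in the ACM groups.

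HERPUD1 had the largest difference between media of the set at both passages, followed by XBP1 at P1 and CRELD2 at P3. HERPUD1 encodes an ER membrane protein that serves ER-associated degradation. On the P1 ACM arrays its level was 1.09, 0.82 and 1.12, and on the P1 DMEM arrays 1.46, 1.17 and 2.52. The groups did not overlap, although DMEM replicate 2 exceeded the highest ACM array by a small margin and DMEM replicate 3 stood far above both of its group. HERPUD1 was the gene of the set with p of 0.05 or less at P1. The mean difference was -0.71 ± 0.31 (log2, SE, n = 3 arrays per group, limma adjusted p = 0.198), or -0.85 relative to the median of all genes. Without P1 DMEM replicate 3 it was -0.31 and no longer at that p, and the same p was lost, with differences of -0.76 to -0.61, when any 1 of the P1 ACM arrays was left out. It was also lost without P3 ACM replicate 2 or 3 or P3 DMEM replicate 2, which enter only through the shared spread. On the P3 ACM arrays the level was 1.13, 1.17 and 1.23, and on the P3 DMEM arrays 1.50, 1.68 and 2.15, again without overlap. The P3 difference was -0.60 ± 0.31 (SE, n = 3, limma adjusted p = 0.703), and -0.42 without P3 DMEM replicate 3. Over both passages, by the scanner labels, the 6 ACM arrays covered 0.41 log2 units and the 6 DMEM arrays 1.35. With slide fitted as a block the difference was -0.24 at P1 and 0.62 at P3, and in the deposited table it was -0.48 and 0.56. The P3 value with the block depends on P1 DMEM replicate 3, the array with the highest HERPUD1.

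XBP1 encodes the transcription factor of the IRE1 arm, and its mRNA is itself a target of ATF6. Its level was 1.08, 1.01 and 1.12 in P1 ACM and 1.21, 1.12 and 2.23 in P1 DMEM. In P3 ACM it was 1.14, 1.13 and 1.23, and in P3 DMEM 1.19, 1.46 and 2.03. The groups overlapped at both passages, and DMEM replicate 3 was the highest array each time. The difference was -0.45 ± 0.29 at P1 (SE, n = 3, limma adjusted p = 0.424) and -0.39 ± 0.29 at P3 (SE, n = 3, limma adjusted p = 0.761). The SD of the 3 arrays was 0.055 in P1 ACM and 0.057 in P3 ACM, and 0.62 in P1 DMEM and 0.43 in P3 DMEM. The spread in DMEM is that of replicate 3 against the other 2 replicates, and without replicate 3 of DMEM the difference was -0.09 at P1 and -0.16 at P3. With slide as a block the P3 difference was 0.69, and in the deposited table it was 0.38. The value with the block again depends on P1 DMEM replicate 3, where XBP1 was highest.

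**Figure D2:**
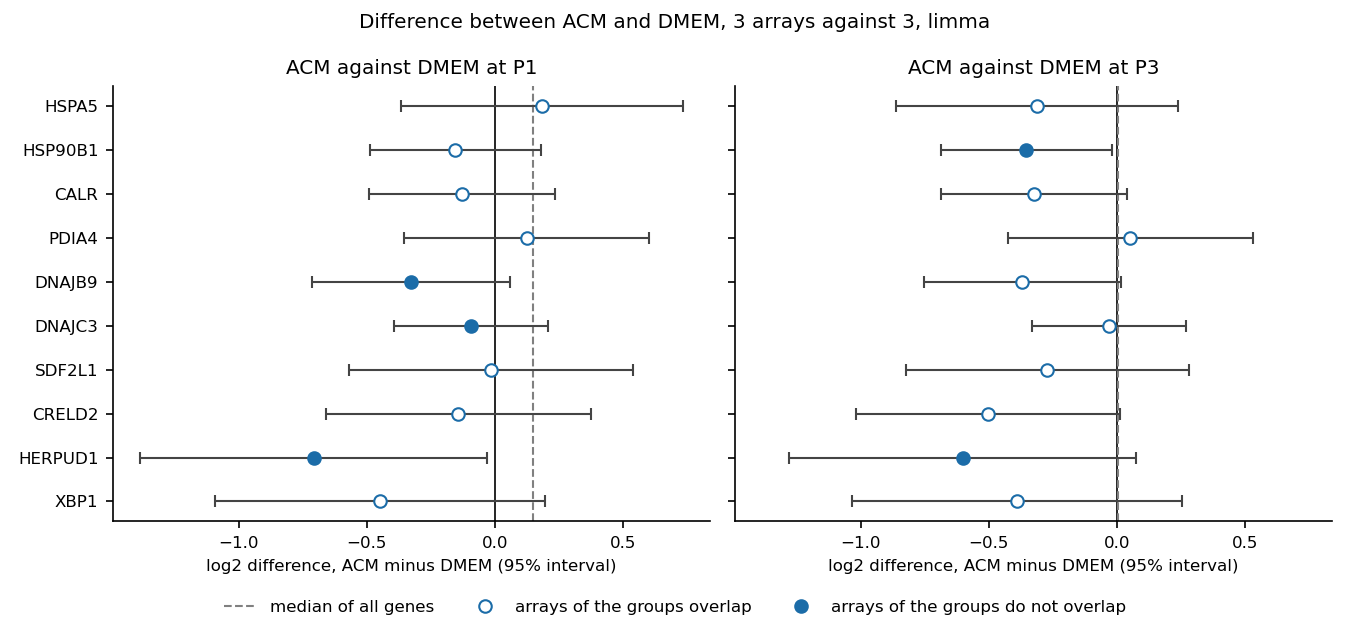
Log2 difference between ACM and DMEM for each gene at P1 (left) and P3 (right), with the 95% interval from limma over 3 arrays against 3. The dashed line is the median of all genes, and filled points mark genes without overlap between the media. The intervals of HERPUD1 at P1 and HSP90B1 at P3 lie below 0, though the HSP90B1 difference was 0.018 after normexp and 0.066 in the deposited table.

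The J-domain proteins hand unfolded clients to HSPA5. DNAJB9, which is induced by XBP1 and also restrains IRE1, had levels of 0.75, 0.74 and 0.78 in P1 ACM and 0.91, 1.10 and 1.25 in P1 DMEM. No ACM array reached the DMEM arrays, and the difference was -0.33 ± 0.17 (SE, n = 3, limma adjusted p = 0.306). In P3 ACM the levels were 0.68, 0.91 and 0.74 and in P3 DMEM 0.84, 1.21 and 1.40, and the groups overlapped. The P3 difference was -0.37 ± 0.17 (SE, n = 3, limma adjusted p = 0.703), and -0.24 without P3 DMEM replicate 3. In the deposited table it was 0.35. DNAJB9 had no ERSE or UPRE in its window. DNAJC3, known as a partner of HSPA5 in the ER lumen that also inhibits PERK, was the steadiest gene of the set, with all 12 arrays between -2.31 and -1.93. Its P1 arrays did not overlap, at -2.13, -2.08 and -2.13 in ACM and -2.06, -1.93 and -2.07 in DMEM, but the difference was only -0.09 ± 0.14 (SE, n = 3), and at P3 it was -0.03 ± 0.14 (SE, n = 3). In the deposited table the P3 difference of DNAJC3 was 0.25. At P1, 3 of the 10 genes (HERPUD1, DNAJB9 and DNAJC3) had all ACM arrays below all DMEM arrays, as did 5.36% of all genes. At P3, 2 of 10 did (HERPUD1 and HSP90B1), as did 5.02% of all genes. No gene of the set had its ACM arrays above its DMEM arrays at either passage, as 30.6% of all genes did at P1 and 4.74% at P3. An exact permutation test of 3 arrays against 3 cannot go below p = 0.1, which these genes reached.

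The chaperones of the ER lumen include HSPA5 (BiP), which also holds the sensors inactive, HSP90B1 (GRP94), the ER form of HSP90, and CALR, a lectin chaperone that binds calcium. HSPA5 read 0.74, 0.22 and -0.14 in P1 ACM and 0.25, 0.05 and -0.03 in P1 DMEM. At P3 it read 0.39, 0.30 and -0.01 in ACM and 0.39, 0.93 and 0.30 in DMEM. The arrays of ACM and DMEM overlapped at both passages, and the P1 ACM arrays held both the highest and the lowest of the 6 ACM arrays, 0.89 log2 units apart. The difference was 0.18 at P1 (95% interval -0.37 to 0.73, limma adjusted p = 0.765) and -0.31 at P3 (95% interval -0.86 to 0.24, limma adjusted p = 0.773). The P3 difference was -0.12 without P3 DMEM replicate 2 and -0.19 without P3 ACM replicate 3. In the deposited table it was 0.21. The change of that difference between passages was -0.50 ± 0.35 (SE, limma adjusted p = 0.796), and -0.26 without P1 ACM replicate 1, where the sign of the P1 difference turned to -0.05, or -0.30 without P3 DMEM replicate 2. In the deposited table that change was 0.36.

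HSP90B1 was the gene of the set with p of 0.05 or less at P3. Its leading probe read 5.35, 5.42 and 5.49 in P3 ACM and 5.61, 5.98 and 5.73 in P3 DMEM. The groups did not overlap, and the difference was -0.35 ± 0.15 (SE, n = 3, limma adjusted p = 0.703). Its direction did not hold under every scaling, since it was -0.0062 after quantile normalization, 0.018 after normexp and 0.066 in the deposited table. The p was above 0.05 without P3 ACM replicate 1 or 2, P3 DMEM replicate 2 or 3, P1 ACM replicate 2, or P1 DMEM replicate 1 or 2, with differences of -0.38 to -0.25. With slide as a block the difference was -0.15 and with slide as a random block -0.29, both without that p. The second probe of HSP90B1 overlapped between the groups at P3, with a difference of -0.16 ± 0.16 (SE, n = 3, limma adjusted p = 0.808). At P1 the leading probe read 5.41, 5.26 and 5.20 in ACM and 5.42, 5.35 and 5.56 in DMEM, with a difference of -0.15 ± 0.15 (SE, n = 3). CALR differed by -0.13 ± 0.16 at P1 (SE, n = 3) and by -0.32 ± 0.16 at P3 (SE, n = 3, limma adjusted p = 0.703), where ACM read 5.37, 5.26 and 5.15 and DMEM 5.84, 5.37 and 5.55 and the groups overlapped by less than 0.01. Without P3 DMEM replicate 1 the P3 difference of CALR was -0.20. PDIA4, an oxidoreductase that forms disulfide bonds, differed by 0.12 ± 0.22 at P1 and 0.05 ± 0.22 at P3 (SE, n = 3), although its sign at P3 turned to -0.14 without P3 ACM replicate 1 and its P3 difference was -0.54, with p of 0.05 or less, in the deposited table.

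SDF2L1, a component of the BiP chaperone complex, and CRELD2, a secretory pathway protein with thioredoxin-like activity, moved together from array to array. CRELD2 read 1.15, 1.47 and 1.82 in P3 ACM and 1.77, 2.48 and 1.70 in P3 DMEM. SDF2L1 read 1.74, 2.18 and 2.50 in P3 ACM and 2.26, 2.93 and 2.04 in P3 DMEM. Both were highest of all 12 arrays in P3 DMEM replicate 2 and lowest in P3 ACM replicate 1. The P3 difference of CRELD2 was -0.50 ± 0.23 (SE, n = 3, limma adjusted p = 0.703), with overlapping groups, and that of SDF2L1 was -0.27 ± 0.25 (SE, n = 3). Without P3 DMEM replicate 2 these differences were -0.25 and -0.012, and without P3 ACM replicate 1 that of SDF2L1 was -0.07. Leaving out replicate 3 of either medium moved SDF2L1 the other way, to -0.45 without the ACM array and -0.46 without the DMEM array. At P1 the differences were -0.14 ± 0.23 for CRELD2 and -0.01 ± 0.25 for SDF2L1 (SE, n = 3). In the deposited table the P3 differences were 0.28 for CRELD2 and 0.17 for SDF2L1.

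Between passages the difference between media was not distinguishable for any gene of the set. In the test of the P3 difference minus the P1 difference, 0 of 10 genes had p of 0.05 or less (8.26% of all genes did). In DMEM alone, P3 against P1, 0 of 10 had p of 0.05 or less (8.12% of all genes), and the largest difference was that of HSPA5 at 0.45 ± 0.25 (SE, n = 3, limma adjusted p = 0.573), which was 0.26 without P3 DMEM replicate 2. With slide as a block HERPUD1 was at -0.745 and XBP1 at -0.67, both lower at P3. There P1 DMEM replicate 3, the array with the highest level of both genes, alone stood for P1. HSPA5, HSP90B1 and CRELD2 had all P3 DMEM arrays above all P1 DMEM arrays, as did 11.2% of all genes. In ACM alone, P3 against P1, 0 of 10 had p of 0.05 or less (13.7% of all genes), and HERPUD1 and XBP1 had all P3 arrays above all P1 arrays, with differences of 0.16 and 0.10 (2.7% of all genes). These comparisons share their arrays with the comparisons of media and are not independent of them.

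Arrays of the same slide could be compared on slide 2, where P3 ACM replicates 2 and 3 stood beside P1 DMEM replicates 1 and 2, so that passage and medium change together. CALR differed by -0.24, PDIA4 by -0.27, DNAJB9 by -0.18 and DNAJC3 by -0.19, each with both ACM arrays below both DMEM arrays, and SDF2L1 by 0.18 with both above. HERPUD1 differed by -0.12 and HSP90B1 by 0.07 with overlapping arrays, and XBP1 by 0.017, CRELD2 by 0.0054 and HSPA5 by -0.0046, all with overlap. With slide as a block other signs also turned, at P1 to -0.13 for HSPA5, -0.43 for PDIA4, 0.50 for SDF2L1, 0.32 for CRELD2 and 0.0076 for HSP90B1 and at P3 to -0.039 for PDIA4. The difference of DNAJB9 became -0.10 at P1 and -0.08 at P3, and that of HSPA5 -0.58 at P3. On slide 3 the 3 P3 DMEM arrays were below P1 DMEM replicate 3 by 0.745 for HERPUD1 and by 0.67 for XBP1 and above it by 0.58 for HSPA5, 0.53 for SDF2L1 and 0.44 for CRELD2.

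**Figure D3:**
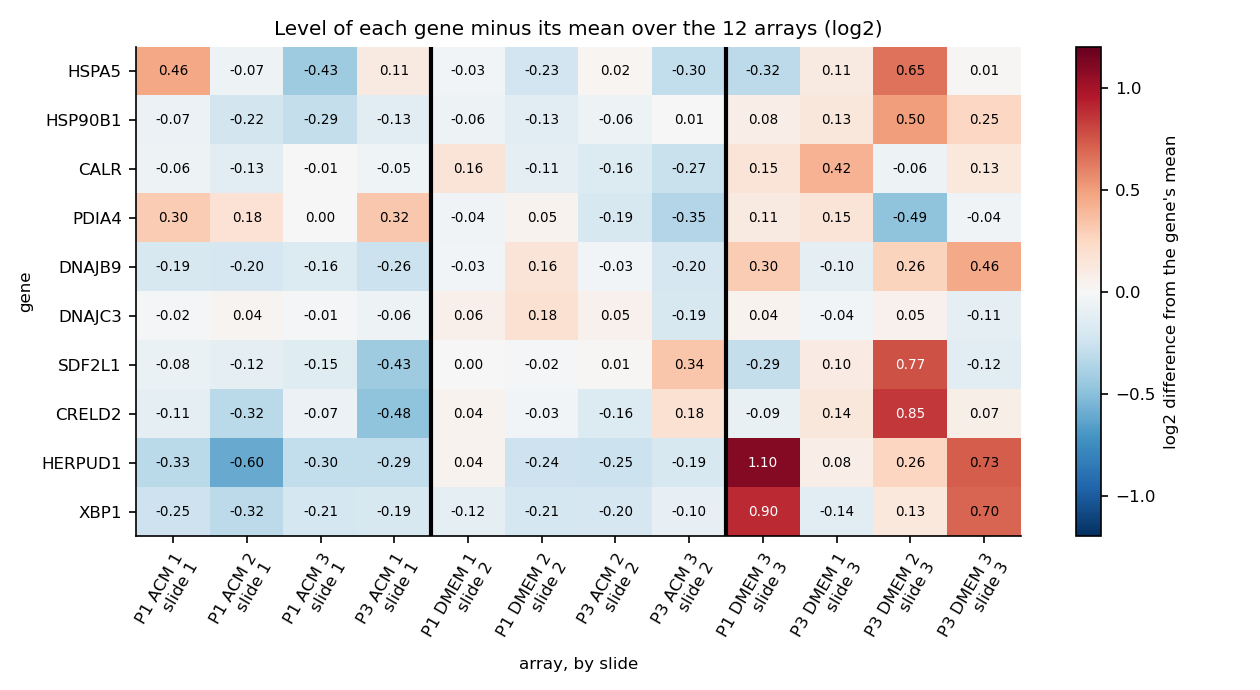
Level of each gene minus its mean over the 12 arrays, in log2 units, with arrays ordered by slide and black lines between slides. The 3 arrays with the largest positive values, P1 DMEM replicate 3, P3 DMEM replicate 2 and P3 DMEM replicate 3, are DMEM arrays of slide 3 by the scanner labels. HERPUD1, XBP1 and DNAJB9 are higher on both replicate 3 arrays than on the other 10, and HSPA5, HSP90B1, SDF2L1 and CRELD2 are highest on P3 DMEM replicate 2.

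The set did not vary as one unit. By the scanner labels the highest array was a DMEM array for 9 of the 10 genes and P3 ACM replicate 1 for PDIA4. Of those 9 arrays 8 lay on slide 3, DNAJC3 being highest in P1 DMEM replicate 2 of slide 2. P3 DMEM replicate 2 had the highest level of HSPA5, HSP90B1, SDF2L1 and CRELD2 and the lowest of PDIA4. The column of the deposited table that ranked as this array was labelled P3 ACM replicate 3. P1 DMEM replicate 3 had the highest level of HERPUD1 and XBP1, while HSPA5 and SDF2L1 were near their lowest there. Pearson r was positive for 29 of the 45 pairs of genes. The adjusted permutation p was 0.05 or less for r in 7 pairs and for Spearman rho in 3. The permutations shuffled all 12 arrays freely, so shifts between groups and slides enter these p-values. HERPUD1 and XBP1 were the only pair with both adjusted permutation p of 0.05 or less, with r = 0.96 and rho = 0.92 over 12 arrays (100000 permutations, adjusted p = 0.00045 and 0.00315). Without P1 DMEM replicate 3 and P3 DMEM replicate 3, the arrays farthest from the median, r was 0.88, and for deviations from slide means it was 0.94. SDF2L1 and CRELD2 had r = 0.92 and rho = 0.68 (permutation test, adjusted p = 0.00472 and 0.124), and r = 0.71 without P3 DMEM replicate 2 and P3 ACM replicate 3. PDIA4 ran against both, with r = -0.83 for SDF2L1 and -0.78 for CRELD2 (rho = -0.62 and -0.68; permutation adjusted p = 0.0129 and 0.0133 for r, and 0.171 and 0.124 for rho), which became -0.48 and -0.46 without those 2 arrays. DNAJB9 had r = 0.82 with HERPUD1 and 0.81 with XBP1 (permutation adjusted p = 0.0133 for both). HSP90B1 had r = 0.81 with CRELD2 (permutation adjusted p = 0.0195). By rho, HSP90B1 passed with HERPUD1 at 0.86 and XBP1 at 0.83 (permutation adjusted p = 0.013 and 0.0213). Their r was 0.63 and 0.55 over the arrays, but -0.30 and -0.25 for deviations from slide means. The pairs that passed by r kept their sign for those deviations. HSPA5 had r of 0.58 with HSP90B1 and between -0.12 and 0.46 with the other genes, and none of these HSPA5 pairs passed.

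By the likeness of its levels over 12 arrays, measured as Pearson r against 15518 genes, HSPA5 was closest to OTULIN (0.93), PUM3 (0.91), TTC8, BAALC and ZBTB8OS. HERPUD1 was closest to MTHFD2 (0.97), a mitochondrial enzyme of folate metabolism, and then to XBP1 (0.96), MXD1, TMEM268 and ZFYVE27. CRELD2 was closest to FAM32A (0.99), CNPY2 (0.98), IDNK, SFT2D2 and RTKN2. HERPUD1 and CRELD2 were chosen for this after their values were seen. These r are the highest of many and share arrays and slides, so they are given as a description.

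The arrays with the highest HERPUD1 and XBP1 were also those with the highest levels of 6 of the 8 genes of the PERK and ATF4 arm. That arm is known to be turned on by ER stress and by amino acid shortage. TRIB3, a pseudokinase induced by ATF4, read 3.81 in P1 DMEM replicate 3 and 3.17 in P3 DMEM replicate 3, and 0.50 to 1.81 on the other 10 arrays. DDIT3, the transcription factor CHOP, read -0.54 and -1.38 there and -3.58 to -2.00 elsewhere. ATF3, a stress-induced factor, read 3.94 and 3.28 against 1.34 to 2.34, and ASNS, the asparagine synthetase, 4.55 and 4.29 against 2.61 to 3.84. Both arrays were above the other 10 for 6 of the 8 genes of that arm (those 4, ATF4 and PPP1R15A), for HERPUD1, XBP1 and DNAJB9 of the set, and for 3.16% of all genes. The margin of ATF4 was small, at 5.73 and 5.57 against 4.37 to 5.55. CHAC1, an ATF4 target that degrades glutathione, ran the other way at 0.15 and 0.78 against 0.78 to 2.08. SESN2 was not raised on both, at 2.82 and 1.97 against 1.29 to 3.13. The columns of the deposited table that ranked as these 2 arrays were labelled P1 DMEM replicate 2 and P3 ACM replicate 2. Both arrays were singled out after their values were seen, and both lay on slide 3. The differences between media without each of them are given with HERPUD1 and XBP1, and without the second of them with DNAJB9.

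**Figure D4:**
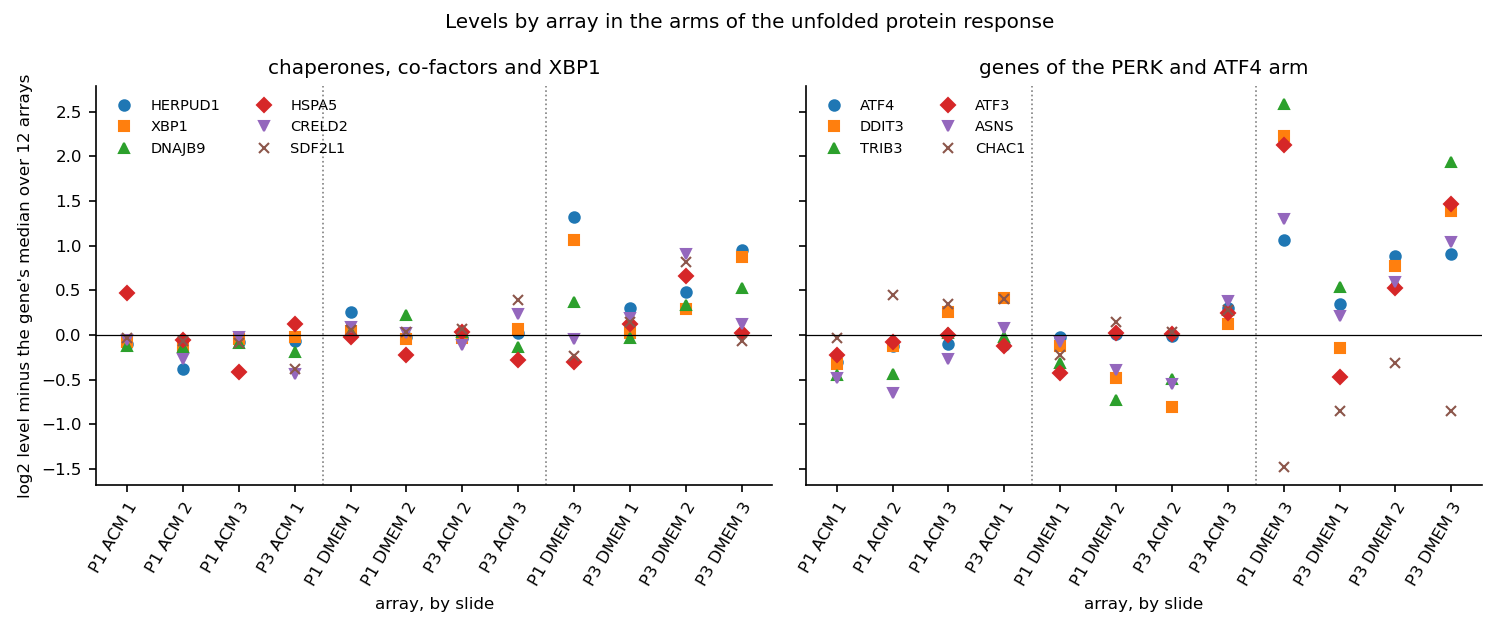
Log2 level on each array minus the median of the gene over 12 arrays, for 6 genes of the set (left) and 6 genes of the PERK and ATF4 arm (right), with dotted lines between slides. TRIB3, DDIT3, ATF3 and ASNS stand highest in P1 DMEM replicate 3 and P3 DMEM replicate 3, as do HERPUD1 and XBP1, while CHAC1 is low there and HSPA5 is not raised.

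Between media, the PERK and ATF4 arm was lower in ACM for 6 of 8 genes at both passages, with median log2 differences of -0.64 at P1 and -0.55 at P3, while 36.1% and 49.6% of all genes were lower. The DMEM group of each passage holds its replicate 3 array, on which TRIB3, DDIT3, ATF3, ASNS, ATF4 and PPP1R15A exceeded all other arrays. Medians without these arrays are not given. Of its genes 0 had p of 0.05 or less at P1, beside 24% of all genes in either direction, and 2 at P3, beside 7.27%. These were ATF4 at -0.65 (limma adjusted p = 0.703) and CHAC1 at 0.91 (limma adjusted p = 0.690). The sensors and factors, which include ATF6, ERN1, EIF2AK3 and the NF-Y subunits, had medians of -0.02 at P1 and 0.06 at P3. ATF6 read 1.44, 1.75 and 1.61 in P3 ACM and 1.99, 1.82 and 1.99 in P3 DMEM, a difference of -0.33 ± 0.14 without overlap (SE, n = 3, limma adjusted p = 0.703). CREB3L1, another membrane-bound factor of this kind, differed by 0.84 ± 0.34 at P3 (SE, n = 3, limma adjusted p = 0.692), with overlap. CREB3L3, known for its role in liver, was the gene of these lists that passed the study's thresholds at P1, with levels of 0.23, -0.09 and -0.16 in ACM and -1.99, -1.32 and -1.15 in DMEM, a difference of 1.48 ± 0.32 (SE, n = 3, limma adjusted p = 0.103). Those thresholds were passed by 13.6% of all genes at P1.

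The other genes of ER folding and quality control had median differences at P3 nearer to 0 than that of the set. Of 16 further chaperones and folding enzymes, 11 were lower in ACM at P1 and 9 at P3, with a median of -0.04 at both, and 0 and 1 had p of 0.05 or less. That 1 was P4HB, the protein disulfide isomerase, which read 5.18, 5.15 and 5.31 in P3 ACM and 5.61, 5.67 and 6.02 in P3 DMEM, with a difference of -0.56 ± 0.15 (SE, n = 3, limma adjusted p = 0.612). HYOU1, an ER chaperone of the HSP70 family with ERSE-II in its window, went the other way at P1, with -2.08, -1.86 and -1.74 in ACM and -2.74, -2.36 and -2.47 in DMEM and a difference of 0.63 ± 0.33 (SE, n = 3, limma adjusted p = 0.296). P3 ACM replicate 1, which shares slide 1 with the P1 ACM arrays, read -1.77, and P3 ACM replicates 2 and 3 on slide 2 read -2.74 and -3.35. Of 14 genes of ER-associated degradation, 12 were lower in ACM at P1 and 10 at P3, with medians of -0.16 and -0.07, and VCP, the ATPase that extracts substrates from the membrane, had p of 0.05 or less at P3 at -0.48 ± 0.19 (SE, n = 3, limma adjusted p = 0.692). The 16 genes of translocation and ER export had medians of -0.06 and -0.05, with 0 past that p. Among 12 cytosolic heat shock genes, which are not controlled by ERSE, 12 were lower in ACM at P1 and 9 at P3, with medians of -0.14 and -0.18, and HSPD1, the mitochondrial chaperonin of that list, had p of 0.05 or less at P3 at -0.48 ± 0.19 (SE, 3 ACM arrays against 2 DMEM arrays, since its spot on P3 DMEM replicate 3 had an outlier call, limma adjusted p = 0.690).

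Of 20 genes outside the set with ERSE in their promoter window, 15 were measured, and 5 were lower in ACM at P1 and 7 at P3, with medians of 0.24 and 0.00. They included CANX, a membrane-bound lectin chaperone, at -0.28 and 0.02, PDIA6 at -0.05 and -0.13, and SERP1, which stabilises membrane proteins, at -0.31 and -0.15. Of 17 genes with ERSE-II outside the set, 15 were measured, and 2 were lower at P1 and 4 at P3, with medians of 0.19 and 0.20. Within the set, the 7 genes with ERSE or ERSE-II had P3 differences between -0.60 and -0.27, and the 3 without, DNAJB9, PDIA4 and DNAJC3, between -0.37 and 0.05. At P1 the 7 lay between -0.71 and 0.18 and the 3 without between -0.33 and 0.12. No test was made of either contrast.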

How the data were processed

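Daoy RNA from 12 arrays was grouped by the medium, passage and replicate in the labels. The authors deposited scanner output of Agilent Feature Extraction 11.0.1.1 (per the submitters' notes), which gives an intensity per spot, corrected for background and not yet normalized. They also deposited a table of log2 values for 30569 probes, whose column labels conflict with the scanner files for all 12 arrays. It was used only under its own labels, as an alternative.

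Of 44495 spots per array, 1377 were controls, and these and outlier spots were dropped. Levels were log2 intensities minus their array's 75th percentile. Probes well above background on all 3 arrays of at least 1 group were kept, 31078 of 34127. Accessions of 25771 probes (75.5%) matched RefSeq (GRCh38.p14), and each gene was read through its brightest kept probe, giving 25275 genes. The groups were fitted with limma 3.58.1 (lmFit, contrasts.fit, eBayes, two-sided) under R 4.3.3, all 12 arrays in 1 fit of 4 group means with 8 residual degrees of freedom, and Benjamini-Hochberg adjustment over the kept probes. The fit was tested on simulated data. Single genes were also compared by an exact permutation test, and pairs of genes by 100000 permutations. Figures were drawn with matplotlib 3.10.9.

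The genes named are all members of the set, then those of the fixed lists (16 folding enzymes, 14 degradation, 16 translocation and export, 12 sensors and factors, 8 of the PERK and ATF4 arm, 12 cytosolic heat shock, and markers) with p of 0.05 or less or of direct relation to a member. The members and lists were chosen with earlier results of these data known. The labels name independent experiments without saying that a replicate number marks a shared day, so p-values measure the spread between these samples. Deviations of same-numbered samples from their group means correlated by 0.43, 0.19 and 0.27 at P1, which were taken as pairs, and by 0.23, -0.19 and 0.06 at P3, which were not. The number of arrays limits the precision. Alternatives were quantile normalization, normexp (offset 50) before it, the deposited table, other filters on dim probes, only the arrays compared, trend and robust eBayes, slide as a fixed or random block, the replicate block, the methods' t-test, the mean of a gene's probes, and each array left out. AGT and AIF1 had no matched probe.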

Additional observations from a re-analysis of the deposited data

How the results depend on the processing

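The study's thresholds were passed by 0 genes of the set in every alternative run, for all 4 comparisons tested. The counts at p of 0.05 or less and the medians moved as follows from 1 gene and -0.14 (P1), 1 gene and -0.34 (P3), 0 genes and -0.13 (P3 difference minus P1 difference) and 0 genes and 0.08 (P3 against P1 in DMEM). Quantile normalization gave 0 genes and -0.0484, 0 and -0.23, and medians of -0.0128 and 0.00175, and it moved the median of all genes at P1 from 0.15 to 0.001. Normexp before it gave 3 genes and -0.056, 0 and -0.22, and -0.059 and -0.0072, with HSP90B1 reversed at P3 to 0.018. The deposited table under its own labels gave 0 genes at P1, a P3 median of 0.23, and 0.0915 and -0.0131, with HSP90B1 at 0.066 and PDIA4 at -0.54 at P3. Probes well above background on all 12 arrays gave 2 genes at P3 and 1 in DMEM, trend and robust eBayes 4 and 1, and the methods' t-test 2 at P3. Only the arrays compared gave 0 genes at P1, and the mean of the probes 0 at P3. Slide as a block gave 0 genes at P1, 0 and -0.13 at P3, and medians of 0.0095 for the difference between passages and -0.0343 in DMEM. In DMEM, where HERPUD1 was -0.745 and XBP1 -0.67, P1 DMEM replicate 3 alone stood for P1, so no count is given. Slide as a random block gave 0 genes at P1 and P3 and -0.049 for the difference between passages.

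The replicate block kept 1 gene at P1 and gave 0 at P3, where HSP90B1 had the same difference, -0.35, but no longer p of 0.05 or less, and it changed no other call. Leaving out each array in turn gave 0 to 1 genes and medians of -0.17 to -0.10 at P1, 0 to 3 genes and -0.41 to -0.25 at P3, 0 genes and -0.25 to -0.056 for the difference between passages, and 0 to 1 genes and 0.025 to 0.30 in DMEM. HERPUD1 at P1 was -0.98 to -0.31 with one array left out, negative in 24 of 24 alternatives and at p of 0.05 or less in 11, and HSP90B1 at P3 was negative in 22 of 24 and at that p in 9. Both calls are therefore borderline, and the cause of their loss was not tested. Signs without a call turned in some alternatives for every gene of the set except CALR, DNAJB9, HERPUD1 and XBP1 at P1 and CALR at P3.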
